A study of Homo sapiens with 79 samples.

Results

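The mRNAs of 10 genes were followed through fRIP-seq of 24 proteins: PABPC1 and PABPC4, the initiation factor EIF4B, the elongation factors EEF1A1, EEF1B2, EEF1D, EEF1G and EEF2, and TPT1 and NPM1. They were chosen by gene symbol, as translation factor and TOP mRNAs together with PABPC1, and are 10 of the 48453 genes and 174 of the 185661 isoforms in the expression tables. All libraries were made from K562, an established human leukemia line, cross-linked with 0.1% formaldehyde, so every group shares that cell line and treatment. The fRIPs differ in the antibody and in their lysates, and input had no immunoprecipitation. In fRIP, the RNA that comes down with an antibody to 1 protein is sequenced beside input RNA from the same kind of lysate. EZH2 and STAG2 had 2 libraries and the other 22 proteins 3, and input had 9 libraries in 3 labelled sets of 3. The antibodies for RNA binding proteins were against PABP, IMP1, HUR, HNRNPU, HNRNPH1 and ADAR. Those for chromatin-associated proteins were against the methylation machinery (EZH2, SUZ12, DNMT1, WDR5, RBBP5), demethylases (LSD1, PHF8), remodellers (CHD4, CHD1, CHD7), acetylation enzymes (HDAC1, CBP, PCAF), CBX3 and its phosphorylated form (phospho-CBX3), CTCF, STAG2 and NUP98. Per the methods, replicates of a fRIP are biological, from lysates made on separate days, all of 1 cell line. The sources used here do not say this of the input sets.

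PABP binds the poly(A) tail of mature mRNAs, protects it and helps to recruit the translation machinery through contacts with the cap-binding complex. TOP mRNAs begin with a C at the cap followed by an uninterrupted run of pyrimidines, and they encode ribosomal proteins, elongation factors and a few other proteins of the translation apparatus, PABPC1 among them. Growing cells translate them at a high rate, and they are repressed together when nutrient signalling falls.

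The values are FPKM, fragment counts scaled to transcript length and to library size, so levels can be compared between genes per length. PABPC1 (ENSG00000070756.9) lies on chromosome 8 at 101698044 to 101735037 of hg19, on the minus strand, and PABPC4 (ENSG00000090621.9) on chromosome 1 at 40026381 to 40042462, also minus. EIF4B (ENSG00000063046.13) is at chr12:53400066-53435999 on the plus strand. The elongation factors are EEF1A1 (ENSG00000156508.13, chr6:74199031-74235310, minus), EEF1B2 (ENSG00000114942.9, chr2:207024309-207027652, plus), EEF1D (ENSG00000104529.13, chr8:144661867-144681711, minus), EEF1G (ENSG00000254772.5, chr11:62327068-62341558, minus) and EEF2 (ENSG00000167658.11, chr19:3976054-3985461, minus). TPT1 (ENSG00000133112.12) is at chr13:45907606-45915419 on the minus strand and NPM1 (ENSG00000181163.9) at chr5:170814120-170838814 on the plus strand.

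Depth was estimated from the spacing of low FPKM values and is given in M, fragments in units of 1e6. It was 19.8 to 20 M in the PABP libraries, 11.9 to 30.4 M in inputs and 1.92 to 58.5 M over the 70 fRIP libraries, with the ADAR libraries the shallowest. All 9 K562 erythroid markers reached 1 FPKM in input on average, as did 3 of 9 markers of other cell types, with EPCAM at 36.2 and COL1A2 at 5.26 FPKM the highest of these. The summed FPKM of a library was 0.503 to 0.615 M in inputs but 0.919 to 1.06 M in PABP fRIP, with a median of 1.96 M in ADAR fRIP. In PABP fRIP the mRNAs of 77 cytosolic ribosomal proteins made up 24.9% ± 2.46 (SD, n = 3) of that sum, against 9.76% ± 0.999 (n = 9) in input. In ADAR fRIP 22 mitochondrial tRNA genes made up 58.9% ± 5.79 (n = 3), against 9.01% ± 2.59 in input. An FPKM is relative to the rest of its library, so a gain of 1 mRNA and a loss of the others cannot be told apart, and neither can fewer cells and less RNA per cell.

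The starts of the genes show which of them carry the TOP feature. From RefSeq, build GRCh38.p14, 9 starts of 7 of the 10 genes are given (PABPC1, PABPC4 and EEF1D are not shown), each from 10 bases before to 20 bases from the start and written 5′ to 3′. Capitals mark an unbroken run of C and T that opens with a C at the first transcribed base and holds at least 4 further pyrimidines.
EIF4B, chr12:53006446-53006475, plus strand: tcatccgggtCTTTTgcgttctctttccct
EEF1A1, chr6:73521013-73521042, minus strand: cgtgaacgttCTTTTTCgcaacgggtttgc
EEF1B2, first start, chr2:206159599-206159628, plus strand: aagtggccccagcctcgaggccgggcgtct
EEF1B2, second start, chr2:206159885-206159914, plus strand: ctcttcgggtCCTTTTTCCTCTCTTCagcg
EEF1G, chr11:62573872-62573901, minus strand: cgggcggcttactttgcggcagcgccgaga
EEF2, chr19:3985444-3985473, minus strand: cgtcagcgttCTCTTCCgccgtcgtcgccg
TPT1, chr13:45341164-45341193, minus strand: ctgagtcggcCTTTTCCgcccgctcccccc
NPM1, first start, chr5:171387106-171387135, plus strand: agctctcttagggcgatgtccttgctaatt
NPM1, second start, chr5:171387839-171387868, plus strand: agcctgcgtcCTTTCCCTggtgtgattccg
Of these 7 genes 6 had such a start, with a run of 5 to 16 pyrimidines, and the annotated start of EEF1G opened with an A. Over all genes of the table, 5.14% of 27305 had such a start. The share was 74.2% of 62 cytosolic ribosomal protein genes, 77.8% of 9 other TOP genes, 20.7% of 29 initiation factor genes and 0 of 15 elongation and termination factor genes outside the 10.

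PABP fRIP was compared first, to see how the mRNAs that encode PABP and its partners in translation behave in the protein's own purification. On the deposited scale each of the 10 genes was higher in every PABP library than in every input library. How many of all genes were so was not counted. On that scale 7 of the 10 were enriched, that is, more than 2-fold higher at a limma adjusted p under 0.05: PABPC1, EEF1A1, EEF1B2, EEF1D, EEF1G, EEF2 and TPT1. None was depleted. Over all 25442 genes tested, 11.1% were enriched and 14.7% depleted. The median log2 fold change of the 10 genes was 1.25, beside -0.15 for all genes and -0.01 for protein-coding genes.

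The strength of that enrichment depends on the scale. When every library was scaled to the same FPKM sum, a change chosen after seeing the data that turns FPKM into a share of molecules, the median of the 10 genes was 0.45 and that of all genes -0.42. TPT1 alone was then still enriched, with 2.78% of all genes enriched and 25.2% depleted. With the sum taken over protein-coding genes only, the median was 0.25 and none of the 10 was enriched or depleted, with 1.69% of all genes enriched and 28.5% depleted. Centring each library on its median gene moved the other way, raising the log2 differences by 0.49, and 9 of the 10 were enriched, all but EIF4B, with 20.9% of all genes enriched. TPT1 was first and EIF4B last of the 10 as deposited, centred and on equal sums of all genes.

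PABPC1, the main cytoplasmic poly(A) binding protein, had 1637, 1603 and 1961 FPKM in the PABP libraries. The inputs ran from 618 through a median of 692 to 791 FPKM. The 2 groups did not overlap, and the fitted difference was 2.52-fold (log2 1.33 ± 0.11 SE, adjusted p = 1.65e-16, exact permutation p = 0.00455, the smallest that 3 against 9 libraries allow). On equal FPKM sums the log2 difference was 0.53. Its relative PABPC4, a second cytoplasmic poly(A) binding protein, had 247, 228 and 227 FPKM against 109.8 to 199 in input, with a median of 137. It too stood above every input, but by 1.68-fold (log2 0.75 ± 0.19, adjusted p = 0.000507), which is short of the fold required, and by -0.06 on equal sums.

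Among the elongation factors, EEF1A1, which delivers aminoacyl-tRNA to the ribosome, was the most abundant of the 10 genes, with 3829, 2934 and 4483 FPKM in PABP fRIP against inputs of 1489.9 to 1790.2. The fitted difference was 2.25-fold (log2 1.17 ± 0.15, adjusted p = 4.96e-10). EEF1B2, a subunit of its nucleotide exchange factor, had 764, 697 and 858 FPKM against 184 to 299.6 in input. The rise of 3.26-fold (log2 1.71 ± 0.16, adjusted p = 2.81e-14) was the largest of the elongation factors. The inputs of EEF1B2 separated by set, at 184 to 194 FPKM in set 1, 214 to 254 in set 2 and 283 to 299.6 in set 3, and its log2 difference was 2.01 against set 1 and 1.4 against set 3.

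EEF1G, the structural subunit of the same exchange complex, had 1374, 1187 and 1635 FPKM against 415 to 576 in input. It rose 2.88-fold (log2 1.52 ± 0.13, adjusted p = 3.65e-15). EEF1D, another exchange subunit, had 455, 488 and 536 FPKM against 199.6 to 312 in input. Its fold of 2.03 (log2 1.02 ± 0.19, adjusted p = 3.91e-06) only just passed the required fold. The call was lost without PABP replicate 3 (log2 0.96), without replicate 1 of input set 1 (0.99), and against input set 2 (0.98) or set 3 alone (0.89). EEF2, the translocase that moves the ribosome along the mRNA, had 2495, 2378 and 3225 FPKM against 879.7 to 1241, a rise of 2.53-fold (log2 1.34 ± 0.14, adjusted p = 1.93e-12).

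TPT1, which encodes the translationally controlled tumor protein, had the largest difference of the 10. Its 3 PABP libraries held 2125, 2050.0 and 2781 FPKM, and the inputs 533 to 742 with a median of 605. The rise was 3.67-fold (log2 1.88 ± 0.12, adjusted p = 9.94e-20), and on equal FPKM sums it was log2 1.07 (adjusted p = 1.06e-10). NPM1, a nucleolar protein of ribosome assembly, had 2003, 1914 and 2153 FPKM against 987 to 1412. It was 1.73-fold higher (log2 0.79 ± 0.17, adjusted p = 4.95e-05) and fell short of the required fold on the deposited scale with all inputs. It passed after centring (1.28) and against input set 1 alone (1.02). EIF4B, which assists the helicase eIF4A in unwinding the 5′ end of mRNAs, was the least abundant and least changed, with 104, 83.6 and 99.95 FPKM against 64.9 to 75.3. Its difference was 1.33-fold (log2 0.42 ± 0.11, adjusted p = 0.00136), and on equal sums it was -0.38 (adjusted p = 0.00464).

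**Figure D1:**
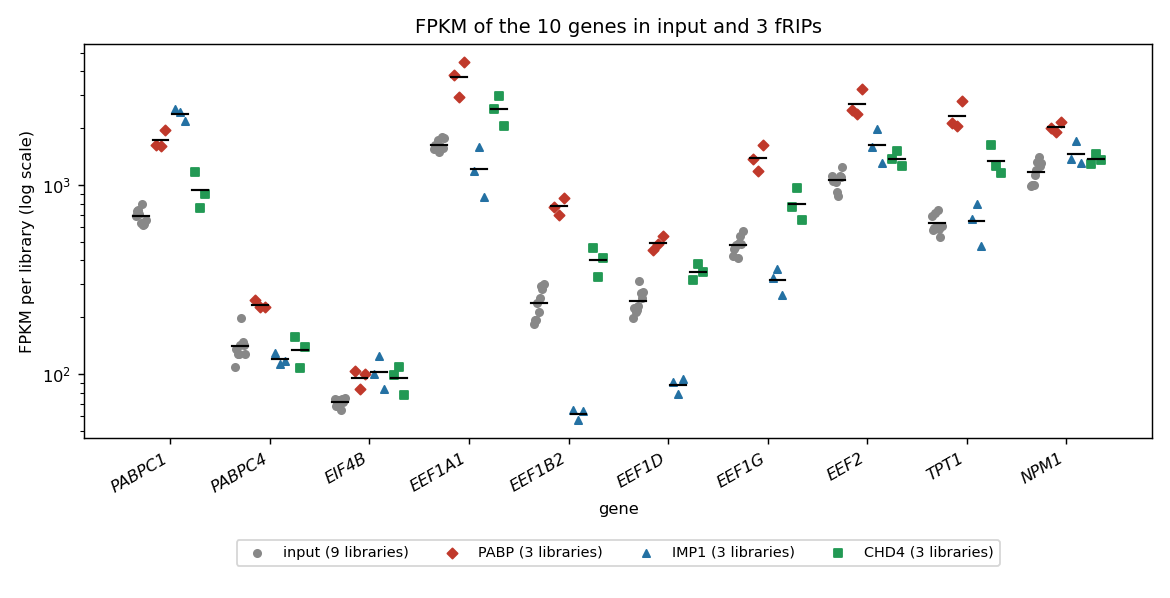
FPKM of each of the 10 genes (log axis) in the 9 input libraries and in the 3 libraries each of PABP, IMP1 and CHD4 fRIP, with 1 point for each library and a bar for the group mean. Every PABP point lies above every input point of its gene, while the IMP1 points of PABPC1, at 2173 to 2516 FPKM, lie above those of PABP and the IMP1 points of EEF1B2 and EEF1D lie below input.

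Across the other 23 fRIPs, of 230 combinations of the 10 genes and a protein, 55 were depleted, 8 enriched and 167 not called. Over all tested genes in the same 23 comparisons, 5.12% of combinations were depleted and 6.72% enriched. In all 63 called combinations the fRIP libraries did not overlap the inputs. They were picked by fold and p on the same values, so this adds no support to the calls. The 24 comparisons share the same 9 inputs and are given side by side. Of the calls, 47 of the 55 depleted and 5 of the 8 enriched combinations held as deposited, centred, and on both equal sums.

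**Figure D2:**
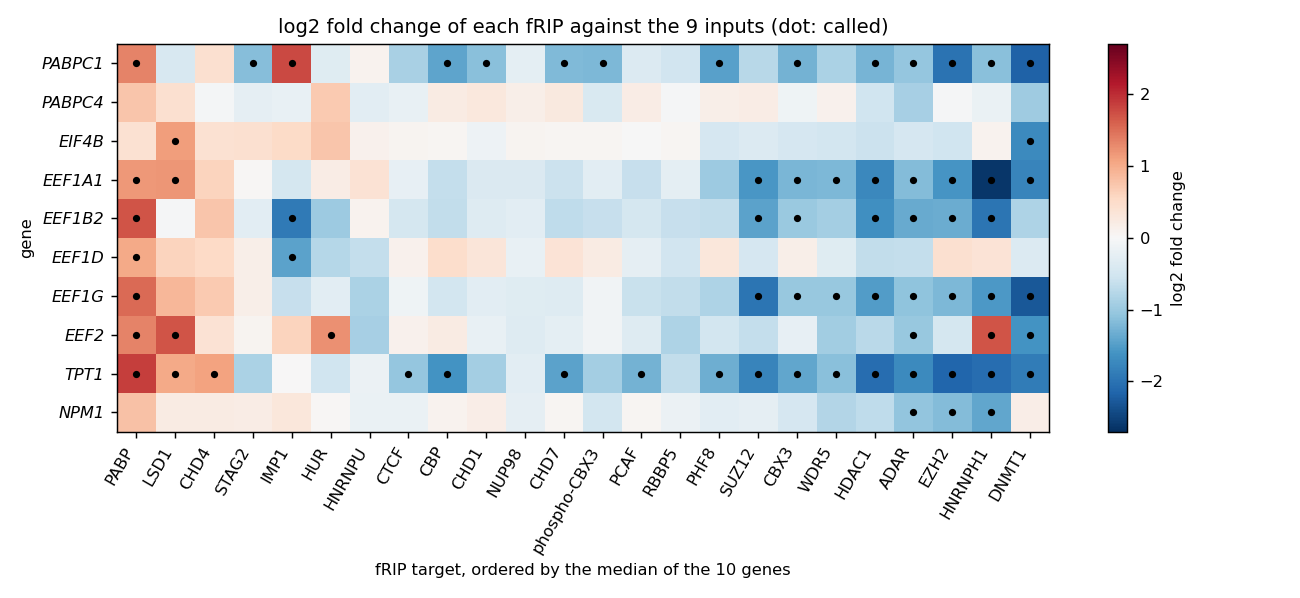
Log2 fold change (colour) of the 10 genes (rows) in each of the 24 fRIPs (columns, ordered by the median over the genes) against the 9 inputs, on the deposited scale, with a dot where the gene was called. PABP, at the left, holds 7 enriched genes, and the columns at the right, from ADAR to DNMT1, hold 6 or 7 called genes, all depleted except EEF2 in HNRNPH1 fRIP.

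PABPC1 was enriched in only PABP and IMP1 fRIP and depleted in 12 others, all 12 on each of the 4 scales, with the lowest levels in EZH2 and DNMT1 fRIP. IMP1, an RNA binding protein that regulates the stability and translation of mature mRNAs, recovered more of it than PABP did. The IMP1 libraries held 2516, 2425 and 2173 FPKM, all above the highest PABP library, and were 3.45-fold above input (log2 1.79 ± 0.11, adjusted p = 1.10e-20). The call held on each of the 4 scales. DNMT1 libraries held 155, 146 and 147 FPKM, a level 4.56-fold below input (log2 -2.19 ± 0.11, adjusted p = 4.43e-25). The 2 EZH2 libraries held 172 and 169 FPKM (4.0-fold below input, SE of log2 0.13, adjusted p = 8.32e-21).

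Ordered by mean level of PABPC1, IMP1 stood first at 2371 ± 177 FPKM, PABP next at 1734 ± 198, then CHD4 at 943 ± 209, HNRNPU at 737 ± 86.8 and input at 687 ± 60.1. IMP1 did not overlap PABP, and PABP did not overlap CHD4. From CHD4 down to PHF8, at 248 ± 28.3 FPKM, each group overlapped the next, which was the case in 20 of 24 neighbouring pairs. EZH2 and DNMT1 stood apart at the bottom.

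**Figure D3:**
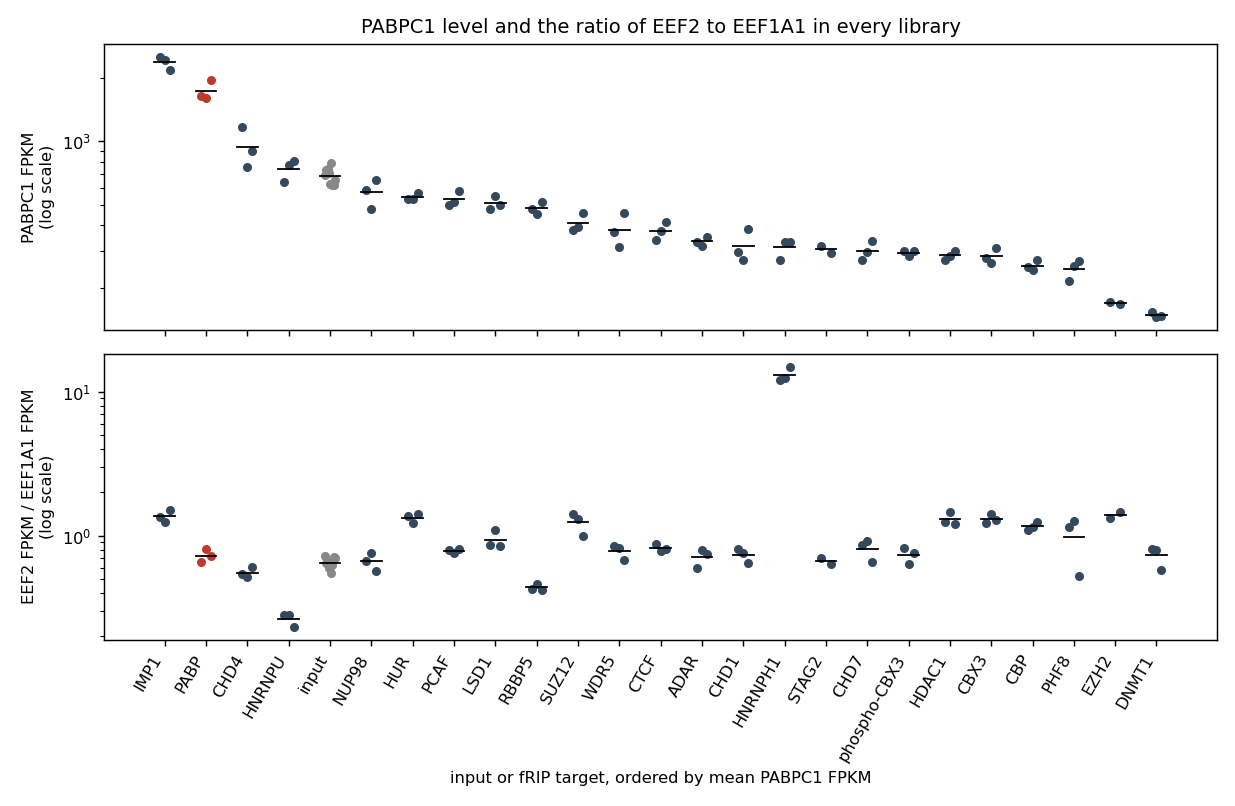
Top, PABPC1 FPKM (log axis) in every library, with input and the 24 fRIPs ordered by mean level and a bar at each mean. Bottom, the ratio of EEF2 to EEF1A1 FPKM within each library (log axis) in the same order, where the 3 HNRNPH1 libraries sit at 12.1 to 15.0 and the inputs at 0.548 to 0.723.

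As deposited, TPT1 was the most often depleted, in 13 fRIPs, 11 of them on each scale, and was enriched in PABP, LSD1 and CHD4 fRIP. Its lowest level was in EZH2 fRIP, with 131 and 152 FPKM (log2 -2.14 ± 0.15, adjusted p = 3.06e-19). On the same scale EEF1A1 and EEF1G were each depleted in 8 fRIPs and EEF1B2 in 7. NPM1 was depleted in 3, EEF2 in 2, and EIF4B and EEF1D in 1 each. On the deposited scale PABPC4 was neither enriched nor depleted in any of the 24, with log2 differences from -0.96 in DNMT1 to 0.75 in PABP fRIP. It was depleted in DNMT1 fRIP on equal sums (-1.17), without DNMT1 replicate 3 (-1.06) or without replicate 1 of input set 1 (past the required fold by under 0.01). In ADAR fRIP it was at -0.89 on the deposited scale, the only 1 of the 4 scales without a call: it was depleted after centring (-1.87), on equal sums (-2.55) and on equal protein-coding sums (-1.14), and also against input set 2 alone (-1.04) and without ADAR replicate 3 (-1.12).

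Among the RNA binding proteins, ADAR, an RNA editing enzyme that binds double-stranded RNA, had 7 genes depleted and none enriched, where 4.31% of all genes were depleted and 26.6% enriched. On equal sums all 10 genes were depleted, with 33.9% of all genes depleted and 7.61% enriched. On equal protein-coding sums, which leave the mitochondrial tRNAs out, 8 were depleted, with 6.75% of all genes depleted and 22.4% enriched. The part of the high mitochondrial tRNA share of these libraries was not tested. Calls of PABPC1 and NPM1 were lost without ADAR replicate 2 and that of EEF2 without replicate 1 (-0.95). Against single input sets, PABPC1 was lost with set 3 (-0.92), EEF2 with set 2 (-0.87), and EEF1G (-0.99) and NPM1 (-0.83) with set 1. HNRNPH1 fRIP had 6 depleted and 1 enriched (7.9% and 24.5% of all genes). HNRNPU fRIP had none called in limma, where 2.52% of all genes were depleted and 13.1% enriched. There 4 of the 10 had an unadjusted p under 0.05, a count not made over all genes. After centring EEF1D (-1.24), EEF1G (-1.44) and EEF2 (-1.49) were depleted there, with 13.7% of all genes depleted and 4.66% enriched, and against input set 3 alone EEF1G and EEF2 (-1.03) were. HUR fRIP had EEF2 enriched and none depleted (6.42% enriched and 6.93% depleted over all genes), with EEF2 at 2219, 2224 and 3146 FPKM, or 2.36-fold above input (log2 1.24 ± 0.14, adjusted p = 6.24e-11), which centring lowered to 0.99. After centring none was enriched in HUR fRIP, and EEF1B2 (-1.23) and EEF1D (-1.02) were depleted, with 2.72% of all genes enriched and 10.6% depleted. EEF1B2 was also depleted there against input set 3 alone (-1.29). IMP1 fRIP had PABPC1 enriched and EEF1B2 and EEF1D depleted, against 4.23% and 10.5% of all genes. After centring EEF1D was at -0.99 and no longer called, and EEF2 was enriched (1.06). On that scale 12.5% of all genes were enriched and 3.62% depleted.

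HNRNPH1, a splicing regulator that binds G-rich RNA, split the 2 main elongation factors. EEF2 had 2849, 3797 and 3784 FPKM in its fRIP, 3.26-fold above input (log2 1.70 ± 0.14, adjusted p = 2.24e-16). EEF1A1 had 236, 306 and 253 FPKM, 6.2-fold below input (log2 -2.63 ± 0.15, adjusted p = 2.52e-23). The ratio of EEF2 to EEF1A1 within a library, which no scaling changes, was 13.1 ± 1.59 (n = 3) there and 0.648 ± 0.0570 (n = 9) in input. In the other fRIPs the mean ratio ran from 0.265 ± 0.0281 in HNRNPU to 1.4 ± 0.0961 (n = 2) in EZH2. This pair was chosen after its values were seen, so the ratio has no test. After centring, EEF2 in HNRNPH1 fRIP was 0.97 above input and no longer called.

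Among the chromatin-associated proteins, LSD1, a histone demethylase, stood out with 4 enriched genes and none depleted, where 0.814% of all genes were enriched and 6.66% depleted. EEF2 had 3188, 4838 and 2677 FPKM in LSD1 fRIP, 3.27-fold above input (log2 1.71 ± 0.14, adjusted p = 1.01e-14). EEF1A1 had 3729, 4389.7 and 3165 FPKM (log2 1.19 ± 0.15, adjusted p = 3.35e-09), close to its PABP level. EIF4B had its highest level here, at 149, 196 and 130.1 FPKM (log2 1.12 ± 0.11, adjusted p = 1.02e-11), and TPT1 had 1233, 1439 and 1167 FPKM (log2 1.03 ± 0.12, adjusted p = 2.00e-09). All 4 calls held on each of the 4 scales, but those of EIF4B and TPT1 were lost without LSD1 replicate 2, at 0.96 and 0.94, the second also without replicate 2 of input set 3 and against input set 2 alone, at 0.90. After centring EEF1D (1.01) and EEF1G (1.32) were enriched as well, with 4.76% of all genes enriched on that scale. PABPC1 had 479, 549 and 497 FPKM in LSD1 fRIP, on the deposited scale below every input (log2 -0.43 ± 0.11, adjusted p = 0.00121), but its difference was -0.02 after centring (adjusted p = 0.91).

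CHD4, a chromatin remodeller, had TPT1 enriched and none depleted, with 2.91% of all genes enriched and 9.79% depleted. TPT1 had 1629, 1257 and 1162 FPKM in CHD4 fRIP (log2 1.09 ± 0.12, adjusted p = 1.09e-10), a call that was lost without CHD4 replicate 1 (0.95), against input set 2 alone (0.96) and on equal protein-coding sums (0.84). After centring, EEF1A1, EEF1B2 and EEF1G were enriched as well, which makes 4, with 10.4% of all genes enriched and 4.55% depleted on that scale. Of the 10 genes, 7 lay above every input in CHD4 fRIP as deposited, a count not made over all genes. The median difference of the 10 was 0.48.

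DNMT1, the maintenance DNA methyltransferase, had 6 genes depleted and none enriched, where 6.88% of all genes were depleted and 9.56% enriched. PABPC1, EIF4B, EEF1A1, EEF1G, EEF2 and TPT1 all fell, by 3.07-fold or more, and EEF1G, at 76.8, 100.3 and 122 FPKM, fell the furthest (log2 -2.29 ± 0.13, adjusted p = 1.45e-21). EIF4B, at 19.6, 19.95 and 23.1 FPKM, was called in no other depletion on the deposited scale. In ADAR fRIP it was depleted after centring (-1.44) and on equal sums of all genes (-2.1). EEF1B2 was also depleted in DNMT1 fRIP on equal sums of all genes (-1.05) and against input set 3 alone (-1.15). NPM1 had 1060.2, 1129.8 and 1954 FPKM there, overlapping the inputs (log2 0.18 ± 0.17).

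EZH2 fRIP had 6 genes depleted and none enriched (9.13% and 10.5% of all genes), of which NPM1 was lost after centring and against input set 1 alone (-0.93), and HDAC1 fRIP had 5 and none (5.35% and 8.42%), with EEF2 as well after centring (-1.02). CBX3 fRIP had 5 depleted and none enriched, where 3.65% of all genes were depleted and 7.45% enriched. There EEF1B2 (2.01-fold lower) and EEF1G (2.04-fold lower) lay at the threshold. Both were lost on equal sums of all genes, at log2 -0.88 and -0.90, against input set 1 alone, at -0.70 and -0.93, against set 2 alone, where EEF1G was at -0.97, and without CBX3 replicate 1, both at -0.98. EEF1B2 was also lost without CBX3 replicate 2, without replicate 3 of input set 2 or without any 1 library of input set 3, and EEF1G without replicate 3 of input set 3. SUZ12 fRIP had 4 depleted and none enriched, against 8.6% and 15.3% of all genes, and PABPC1 as well on equal protein-coding sums (-1.07). In WDR5 fRIP there were 3 depleted and none enriched, against 6.71% and 3.9%, and after centring or on equal sums of all genes none was called there, while EEF1A1 (-1.13) and TPT1 (-1.06) were depleted on equal protein-coding sums. EEF1G was also lost there without WDR5 replicate 2 or replicate 3 of input set 3, and against input set 1 (-0.94) or set 2 alone (-0.98), while EEF1B2 (-1.24) and EEF2 (-1.06) were depleted against set 3 alone.

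The remaining chromatin-associated proteins had few calls. CBP fRIP had PABPC1 and TPT1 depleted (3.78% of all genes depleted and 9.08% enriched). The same pair was depleted in CHD7 fRIP (0.896% and 0.99%) and in PHF8 fRIP (1.71% and 3.18%). After centring EEF1A1 (-1.21) and EEF1G (-1.05) were depleted in PHF8 fRIP as well, which makes 4, with a median of -0.80 for the 10 genes and 3.18% of all genes depleted. PABPC1 alone was depleted in CHD1 fRIP (1% of all genes depleted and 0.424% enriched), phospho-CBX3 fRIP (2.91% and 2.58%) and STAG2 fRIP (3.36% and 0.979%). Against input set 2 alone TPT1 was depleted too in CHD1 (-1.05) and phospho-CBX3 fRIP (-1.04). TPT1 alone was depleted in CTCF fRIP (0.79% and 0.424%) and in PCAF fRIP (8.54% and 0.515%), and the CTCF call was lost without CTCF replicate 3 (-0.98) and against input set 3 alone (-0.93), and the PCAF call after centring (-0.66). In NUP98 fRIP (5.11% depleted and 0.263% enriched) and RBBP5 fRIP (0.731% and 2.28%) none of the 10 genes was called in limma. There 5 and 6 of them had an unadjusted p under 0.05, counts not made over all genes. The median log2 difference of the 10 genes in NUP98 fRIP was -0.28 as deposited (-0.11 for all genes) and 0.14 after centring, so its direction depends on the scale. In RBBP5 fRIP it was -0.52, where EEF2 was depleted after centring (-1.01).

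PABP and IMP1 fRIP were then compared directly, since both proteins bind mature mRNA. On the deposited scale 5 genes were higher in PABP fRIP and none lower, with 13.2% of all genes higher and 9.26% lower. EEF1B2 differed the most, with 65.2, 57.3 and 64.0 FPKM in IMP1 fRIP against 697 to 858 in PABP fRIP, which is 12.2-fold (log2 3.61 ± 0.19, adjusted p = 5.62e-24). EEF1D differed by 5.56-fold (log2 2.47 ± 0.23), EEF1G by 4.41-fold (2.14 ± 0.16), TPT1 by 3.64-fold (1.86 ± 0.15) and EEF1A1 by 3.13-fold (1.65 ± 0.18), each with an adjusted p of 8.41e-12 or less. An exact permutation test of 3 against 3 libraries cannot go below 0.1, and it gave 0.1 for each of the 5.

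PABPC1 went the other way, with every PABP library below every IMP1 library (log2 -0.45 ± 0.13, adjusted p = 0.00335). On equal FPKM sums its difference was -1.45 (adjusted p = 3.33e-15) and EIF4B, which overlapped on the deposited scale, was at -1.08 (adjusted p = 2.36e-09). The split was then 3 genes higher (EEF1B2, EEF1D and EEF1G) and 2 lower in PABP fRIP, with 4.91% of all genes higher and 23.6% lower.

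PABP against CHD4 fRIP gave no call in either direction for the 10 genes, where 4.39% of all genes were higher in PABP fRIP and 1.36% lower. On the deposited scale 8 of the 10 genes had every PABP library above every CHD4 library. There limma gave 9 of the 10 an unadjusted p under 0.05. Neither count was made over all genes. The median difference of the 10 genes was 0.79 as deposited and 0.07 on equal sums. The largest differences were those of EEF2 (log2 0.96 ± 0.17, adjusted p = 1.69e-05) and EEF1B2 (0.95 ± 0.19, adjusted p = 0.00013), both just short of the fold required and past it after centring, at 1.05 and 1.04, with 5.34% of all genes higher on that scale. Without CHD4 replicate 1, PABPC1 (1.06) and EEF1B2 (1.07) were called, without PABP replicate 2 EEF1B2 (1.03) and EEF2 (1.04), and without CHD4 replicate 2 or PABP replicate 1 EEF2 alone. On equal sums the differences of the 10 genes ran from -0.71 for EIF4B to 0.23 for EEF2.

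Isoforms add a measure that does not depend on the scale of a library, the share of a gene's FPKM that each isoform takes. The split among overlapping isoforms is an estimate by Cuffdiff from short reads. The full-length reference isoform got 0.971% of the PABPC1 total in input, 0.431% for NPM1 and 0.0262% for EIF4B, so single isoforms of these genes are uncertain. Of 26 isoforms that held at least 10% of their gene in input, 16 were enriched in PABP fRIP, 2 depleted and 8 not called, beside 9.69% of all 104506 isoforms enriched and 16.1% depleted. Against input set 3 alone 10 were enriched, beside 7.54% of all isoforms, and on equal sums 3, beside 3.59%.

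The 16 enriched isoforms included 14 of 20 coding ones. PABPC1 was led by the coding isoform ENST00000520868.1, with 153 to 238 FPKM in input and 627 to 750 in PABP fRIP (log2 1.88 ± 0.13, adjusted p = 2.36e-18), and its share went from 27.1% to 39.5%. The coding isoform ENST00000519004.1 rose too (log2 1.45 ± 0.13). The isoform ENST00000519596.1, annotated without a defined coding sequence, fell from 105 ± 14.1 to 29.8 ± 21.2 FPKM (log2 -2.19 ± 0.32, adjusted p = 6.00e-08). PABPC4 showed the same kind of split. Its coding isoforms ENST00000437136.1 (log2 1.08 ± 0.24) and ENST00000531243.2 (1.35 ± 0.29) rose, and its retained-intron isoform ENST00000483770.1 fell from 14.7 ± 5.93 FPKM to 0.16 ± 0.278 (log2 -3.69 ± 0.31, adjusted p = 2.31e-15).

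Both main isoforms of EEF1A1 rose, at log2 1.25 ± 0.13 for ENST00000309268.6 and 1.21 ± 0.40 for ENST00000356303.2. The coding isoforms ENST00000392221.1 (1.80 ± 0.35) and ENST00000445505.1 (2.13 ± 0.68) of EEF1B2 rose, while ENST00000455150.1, classed as a target of nonsense-mediated decay, was at 0.94 ± 0.58 (adjusted p = 0.21). For EEF1D, ENST00000526838.1 (1.58 ± 0.26), ENST00000528610.1 (2.03 ± 0.51) and the nonsense-mediated decay isoform ENST00000529007.1 (1.19 ± 0.40) all rose. EEF1G rose in ENST00000329251.4 (1.5 ± 0.12) and ENST00000524420.1 (1.64 ± 0.22), and EEF2 in ENST00000309311.6 (1.01 ± 0.15), whose share of the gene went from 94.7% to 75.3%.

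TPT1 rose in both of its main isoforms, ENST00000530705.1 (2.11 ± 0.15) and ENST00000379056.1 (1.62 ± 0.14). The 3 NPM1 isoforms with at least 10% of the gene were not called, and the retained-intron isoform ENST00000523339.1, with 39.8% of the gene in input, was the highest of them at log2 0.87 ± 0.21. The other two of these, ENST00000517671.1 and ENST00000523622.1, were both at 0.63. Of the EIF4B isoforms above that share, ENST00000552490.1 was at 0.69 ± 0.20, ENST00000416762.3 at 0.04 ± 0.14 and ENST00000420463.3 at 0.01 ± 0.19, and none was called. The third coding isoform of PABPC4 above that share, ENST00000372858.3, was at 0.87 ± 0.26.

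Isoforms with a retained intron, which are often held in the nucleus or decayed, went down in PABP fRIP within most of these genes. Of 41 such isoforms that passed the filter, 21 (51.2%) were depleted and none enriched, where over all genes 34.3% of 19390 tested retained-intron isoforms were depleted and 3.64% enriched. Of 96 coding isoforms of the 10 genes 38.5% were enriched and 8.33% depleted, beside 13.9% and 9.93% of all coding isoforms. As a share of the gene, retained-intron isoforms were lower in every PABP library than in every input for 7 of the 10 genes. In percentage points PABPC4 had the largest drop, from 25.2% ± 8.01 (14.6% to 34.5%, n = 9) in input to 2.73% ± 0.868 (2.06% to 3.71%, n = 3) in PABP fRIP. Its exact permutation p was 0.00455. PABPC1 went from 3.07% ± 0.583 to 0.0169% ± 0.0104 and EEF2 from 2.85% ± 1.14 to 0.105% ± 0.0399, with the same exact permutation p for both. NPM1 was at 41.8% ± 1.96 in input and 42.5% ± 2.97 in PABP fRIP (exact permutation p = 0.636), EEF1A1 at 8.61% ± 3.28 and 5.89% ± 0.784 (exact p = 0.182), and EIF4B at 1.73% ± 2.88 and 4.71% ± 4.09 (exact p = 0.218). These p-values are unadjusted, 1 of 10 genes each. A lower retained-intron share was not particular to PABP fRIP. That of PABPC1 was 0.387% ± 0.159 in IMP1 and 0.386% ± 0.227 in CHD4 fRIP (exact permutation p = 0.00455 for both), and that of PABPC4 was 10.8% ± 1.68 in IMP1 fRIP (exact permutation p = 0.0136) and 16.8% ± 3.00 in CHD4 fRIP (exact permutation p = 0.127). In HNRNPH1, HNRNPU and DNMT1 fRIP the share of some genes was higher than in input, and in DNMT1 fRIP genes went both ways. In HNRNPH1 fRIP that of EEF1B2 was 28.2% ± 3.29 and that of EEF1G 15.9% ± 4.56 (exact permutation p = 0.00455 for both). In input they were 2.035% ± 0.909 and 0.345% ± 0.281. That of EEF1D was 9.37% ± 1.06 in HNRNPH1 fRIP against 10.6% ± 4.03 in input (exact permutation p = 0.664). The share was higher than in input at 76.4% ± 4.34 for PABPC4 in HNRNPH1 fRIP and 18.2% ± 0.581 for PABPC1 in DNMT1 fRIP (exact permutation p = 0.00455 for both). In DNMT1 fRIP that of EEF1D was lower, at 3.57% ± 1.22 against 10.6% ± 4.03 (exact permutation p = 0.0182), and that of PABPC4 was 30.7% ± 3.63 (exact permutation p = 0.332). In HNRNPU fRIP that of PABPC4 was higher, at 50.0% ± 2.76 (exact permutation p = 0.00455). That of PABPC1 was 2.83% ± 0.328 there (exact permutation p = 0.541).

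**Figure D4:**
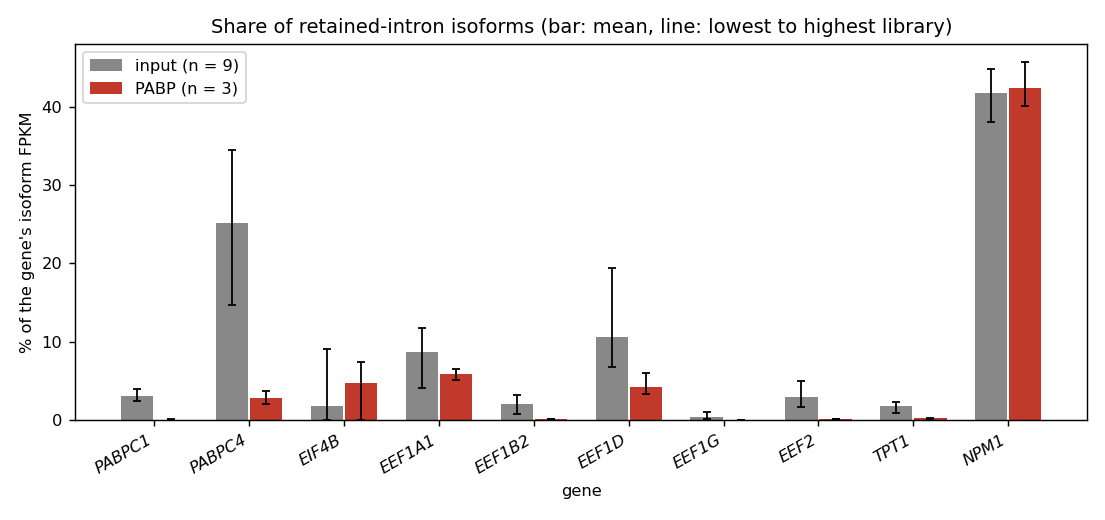
Share (percent) of each gene's isoform FPKM that falls on isoforms annotated with a retained intron, in the 9 inputs and the 3 PABP libraries, with bars for the mean and lines from the lowest to the highest library. In PABP fRIP the share of PABPC4 is 2.73% against 25.2% in input, while that of NPM1 stays near 42%.

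The rest of the translation apparatus was described from lists that leave out the 10 genes. All 77 cytosolic ribosomal protein genes were enriched in PABP fRIP, with a median log2 difference of 2.13, beside 11.1% of all genes. On equal FPKM sums 58 still were, beside 2.78% of all genes. They ranged from RPSA (log2 1.36 ± 0.14) to RPL38, at 875 ± 204 FPKM in input and 5938 ± 1276 in PABP fRIP (2.78 ± 0.23). The 10 genes lay below that median, TPT1 included. In IMP1 fRIP 48 of the 77 were depleted and none enriched (median -1.37), beside 10.5% and 4.23% of all genes. After centring 34 were depleted and 1 enriched, beside 3.62% and 12.5% of all genes on that scale. In CHD4 fRIP 6 were enriched and none depleted (0.48), beside 2.91% and 9.79%, and after centring 28 were enriched, beside 10.4%.

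Of 14 other TOP mRNAs, 8 were enriched in PABP fRIP and 1 depleted (median 1.19), from FAU, a ribosomal protein fused to a ubiquitin-like one (2.14 ± 0.17), to IPO7, a nuclear import receptor (-1.22 ± 0.14). On equal sums 3 of the 14 were enriched and 2 depleted (median 0.39). Of 35 initiation factors, 9 were enriched and 4 depleted (median 0.65), with EIF1, which guards start codon choice, highest at 2.06 ± 0.21 and EIF3A, the large scaffold of eIF3, lowest at -1.20 ± 0.12. On equal sums 1 of the 35 was enriched and 4 depleted. Of 16 other elongation and termination factors, 3 were enriched and none depleted (median 0.25), from EEF1E1 (1.67 ± 0.14) to ABCE1, the ribosome recycling factor (-0.76 ± 0.24, not called). On equal sums none was enriched and 3 depleted. Over all genes, for these lists and the next ones, 11.1% were enriched and 14.7% depleted on the deposited scale (median -0.15), and 2.78% and 25.2% on equal sums (median -0.42).

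Of 22 tested genes for poly(A) binding and deadenylation, 2 were enriched and 3 depleted in PABP fRIP, with a median of -0.12, beside 11.1% and 14.7% of all genes and their median of -0.15. PABPN1, the nuclear poly(A) binding protein, was the highest, at 87.1 ± 4.96 FPKM in input and 209 ± 20.6 in PABP fRIP (1.25 ± 0.11). PABPC1L was the lowest (-1.83 ± 0.39). On equal sums none was enriched and 8 depleted, beside 2.78% and 25.2% of all genes. The K562 erythroid markers gave 4 enriched and 1 depleted of 9, from HBZ, an embryonic globin (1.67 ± 0.69), to TFRC, the transferrin receptor (-1.14 ± 0.14). On equal sums none of the 9 was enriched and 1 was depleted. Their summed level was 901 to 2618 FPKM in inputs and 4116 to 4649 in PABP fRIP. The 9 markers of other cell types summed to 36.1 to 58.5 FPKM in inputs and 65.5 to 74.9 in PABP fRIP. The part of these markers in the results was not tested.

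**Figure D5:**
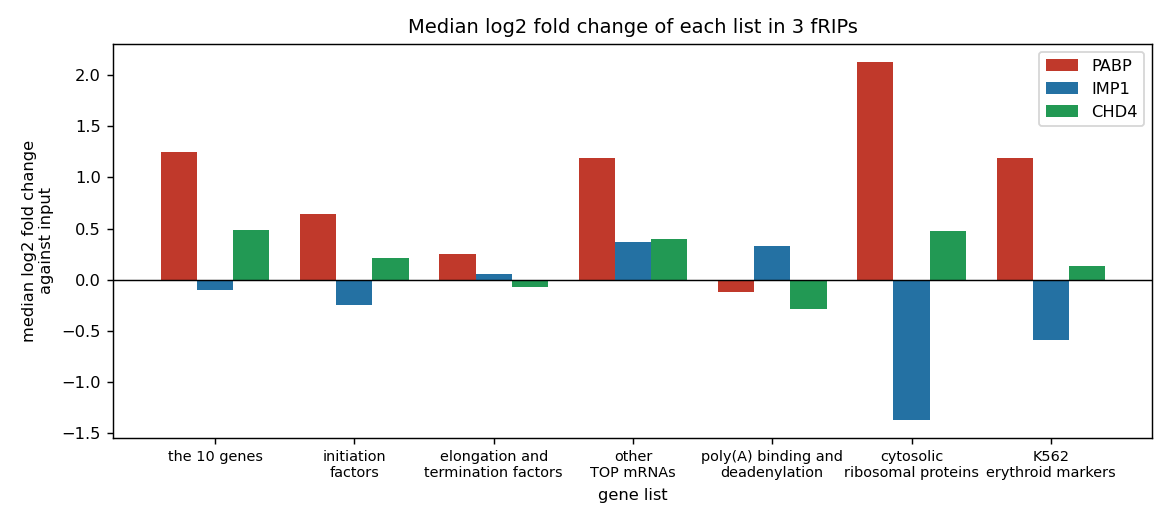
Median log2 fold change against the 9 inputs, on the deposited scale, of the 10 genes and of 6 other gene lists in PABP, IMP1 and CHD4 fRIP. For cytosolic ribosomal proteins the PABP bar stands at 2.13 and the IMP1 bar at -1.37, while for the 10 genes the bars stand at 1.25, -0.10 and 0.48.

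Over the 25 group means (24 fRIPs and input), the 5 protein-coding genes whose mean log2(FPKM + 1) followed that of PABPC1 most closely, of 7440 with at least 10 FPKM in input, were RAB4A (Pearson r = 0.905), GBAS (0.85), HDHD1 (0.847), FAM206A (0.841) and ME2 (0.837). They share libraries, scale and inputs with PABPC1, so these are descriptions. All 5 were above input in both PABP and IMP1 fRIP, RAB4A by log2 1.52 and 1.15 and FAM206A by 1.17 and 1.85. Of the 9 other genes followed here, TPT1 was nearest to PABPC1 (r = 0.792, rank 14) and EEF1D farthest (r = -0.21, rank 4540).

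Some of these genes share sequence with other annotated genes, which can limit how well short reads can be assigned. Positions were not compared, so genes annotated over the same locus count as other genes. Of the 25-base words of the reference isoform, 99.5% recur in other genes for EEF1G (98.0% in the single gene ENSG00000255508), 80.2% for NPM1 and 75% for EEF1B2. The share was 51.1% for EIF4B, 46.4% for EEF1A1, 46.1% for PABPC1, 39.3% for EEF1D, 15.6% for TPT1, 13.1% for PABPC4 and none for EEF2. For PABPC4, 6.45% recur in its antisense gene PABPC4-AS1, and the library kit named in the methods does not mark strand. The 39 pseudogenes of EEF1A1 summed to 21.0% of their parent in input and 19.9% in PABP fRIP, with EEF1A1P5 highest at 132 and 336 FPKM. The 8 EIF4B pseudogenes summed to 30.1% and 22.2%, led by EIF4BP6 (8.67 and 9.49 FPKM), and the 45 of NPM1 to 9.91% and 6.75%, led by NPM1P27 (71.6 and 98.0 FPKM). The pseudogenes of PABPC1, EEF1B2, EEF1D, EEF1G and TPT1, led by PABPC1P1, EEF1B2P3, EEF1DP1, EEF1GP1 and TPT1P1, stayed at or below 2.35% of their parent.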

How the data were processed

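RNA from fRIP and input libraries of K562 cells was analysed from the deposited FPKM of genes and isoforms, which the authors obtained with TopHat and Cuffdiff 2 on hg19 with GENCODE v18, after ribosomal RNA removal and paired-end sequencing. The deposited tables of comparisons hold the authors' group values, fold changes and test results, and were not used.

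Groups came from the labels. The second STAG2 library, numbered differently in labels and table, was used without a number. One limma 3.58.1 fit (R 4.3.3) with an intensity trend on log2(FPKM + 1) held 79 libraries and the 25442 genes that reached 1 FPKM in 2 or more libraries, so fold changes of low genes are understated. Isoforms had a fit of their own. Benjamini-Hochberg adjustment was made within each comparison, and a call needed an adjusted p under 0.05 and more than 2-fold. Exact permutation tests over libraries were two-sided. The fits were tested on simulated data. Depth is an estimate from the steps of low FPKM values, of which 95.8% to 99.5% lay within 0.15 of a whole number of fragments.

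Identifiers were looked up in the hg19 lift of GENCODE v44 (46055 of 48453 genes and 172143 of 185661 isoforms), which gave coordinates and classes. Named were the 10 genes in every comparison, isoforms with at least 10% of their gene in input, the highest and lowest gene of each other list in PABP fRIP, the 5 genes most like PABPC1 and the highest pseudogene of each gene. The genes and lists were chosen with earlier results of these data known. Same-numbered PABP and input libraries had correlated deviations of -0.032 to 0.06 in set 1, -0.094 to 0.043 in set 2 and 0.085 to 0.16 in set 3. In set 3 the same-numbered input gave the highest value for each PABP library. Since the values were not over 0.1 in each pair, the numbers were not taken to pair libraries. A pairing with set 3 alone was not tested. Alternatives covered pseudocounts, filters, centring, single input sets, equal FPKM sums, a replicate block, own libraries only and each library left out. Tables and figures used Python 3.11.15 with pandas 2.3.3, numpy 2.4.6 and matplotlib 3.10.9. The level of 1 marker gene is not reported here.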

Additional observations from a re-analysis of the deposited data

Results flagged for a closer look

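PABP and IMP1 fRIP, both of mature mRNA binding proteins, differed in a direct test for 5 of the 10 genes. The log2 difference of PABP minus IMP1 was 3.61 for EEF1B2, 2.47 for EEF1D, 2.14 for EEF1G, 1.86 for TPT1 and 1.65 for EEF1A1 (limma, deposited scale), and in each case all 3 PABP libraries lay above all 3 IMP1 libraries. On equal FPKM sums the first 3 were still called and TPT1 (0.86) and EEF1A1 (0.65) were not.

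Among the 9 inputs, replicate 3 of input set 2 stood apart for PABPC4, at 198.5 FPKM, with a gap to the next library that was 0.557 of the whole range, above Dixon's critical value for 9 libraries. Chance sets apart about 1 in 20 groups, and 10 genes were looked at. Without that library the PABPC4 difference in PABP fRIP was not called either.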

How the results depend on the processing

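In PABP fRIP 7 of the 10 genes were enriched. This was 1 on equal FPKM sums and 0 on equal sums of protein-coding genes, 6 to 8 against single input sets, 9 after centring, 10 when centred with input set 1 alone (where 26.7% of all genes were enriched), and 6 to 7 when each library was left out, with none depleted in any of these. Over the other 23 fRIPs, 8 enriched and 55 depleted combinations became 23 and 45 when centred with input set 1 alone (9.62% and 5.22% over all genes). Centred with set 2 alone they were 12 and 72 (5.68% and 7.77%), and with set 3 alone 7 and 72 (5.57% and 7.76%). When 1 library was left out the enriched ones were 6 to 9 and the depleted ones 52 to 57. Of PABP against IMP1, 5 higher and 0 lower became 3 higher and 2 lower on equal sums of either kind, and 5 to 6 higher when 1 library was left out. PABP against CHD4 had 0 called, 2 after centring, and 0 to 2 when 1 library was left out. Isoforms enriched in PABP fRIP were 16, but 10 against input set 3 alone, 3 on equal sums, 9 at a minimum share of 20% (where 0 rather than 2 were depleted) and 13 to 16 when 1 library was left out. The equal sums and the centred single sets were chosen after seeing the data. No called value of the 10 genes changed sign under any alternative. Pseudocounts of 0.1 and 0.5, both filters, own libraries only and the replicate block changed none of 260 single calls each, and with the replicate block the PABP count was 7. Of 260 single calls, 8 were lost and 22 gained by centring, and 13 lost and 8 gained on equal sums. Why the scales differ was not tested. Depth limits values near 1 FPKM most, and the 10 genes lie far above that.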
